A study of Mus musculus with 6 samples.

Results

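Ceacam1 and Ceacam2 are neighbouring mouse genes on chromosome 7 that encode cell adhesion proteins of the carcinoembryonic antigen (CEA) family. They were examined in renal tubular epithelial cells isolated after ischemia and reperfusion from mice given vehicle or PT2385, a small molecule that blocks dimerization of the hypoxia-inducible factor HIF-2α and ARNT. Each gene was taken as the transcript cluster annotated with its symbol (the set of probes that the array reads as 1 gene or nearly so), which was 1 cluster for Ceacam1 (TC0700002635.mm.2) and 1 for Ceacam2 (TC0700002636.mm.2). These are 2 of 19505 genes named on the array. The pair was selected on its signal in these same arrays, the PT2385 minus vehicle difference, so its values in that comparison are a description and carry no test.

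In both arms the kidneys were ischemic for 30 min and then reperfused for 24 h, which injures the tubules, and cells were released with collagenase. The vehicle arm had 3 arrays and the PT2385 arm 3 arrays, 1 per sample. The compound was injected at 10 mg/kg, once 16 h ahead of surgery and then 1, 8 and 20 h later, and is spelled PT2384 where the protocol describes the injections. The sample names use IR and IRPT, which were read as the vehicle and the PT2385 arm. Strain, age and sex are not given in the labels, samples without ischemia were not analysed here, and nothing says whether each sample came from a separate animal. If they did not, the p-values below cover no more than technical spread among these 6 arrays.

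Of the 5 sex-linked genes looked up, the 3 that were measured separated the arms. Eif2s3y, a translation initiation factor gene of the Y chromosome, had a mean log2 signal of 9.20 ± 0.10 in the vehicle arrays and 3.21 ± 0.16 in the PT2385 arrays (SD, n = 3 each). Kdm5d had means of 6.47 and 3.32, and Uty had 8.66 and 2.99. The vehicle and PT2385 arms thus also differ in Y-linked transcripts on all 6 arrays, and for every difference below an effect of PT2385 and a difference in sex cannot be told apart. Array medians over all clusters were close (6.196 to 6.199 for vehicle, 6.235 to 6.248 for PT2385). Proximal tubule markers had a mean signal over 10 genes of 10.42 to 11.48. Heights of different clusters cannot be compared, so the marker levels given here do not measure the share of tubular cells. Mean signals were 8.03 to 8.49 for 8 endothelial markers, 8.49 to 8.94 for 5 fibroblast and pericyte markers and 7.51 to 7.78 for 4 podocyte markers. The brightest background control row reached 7.47, while negative control rows had array medians of at most 4.47. The podocyte means were thus little above the brightest background row, and Wt1 (5.75 to 6.41) lay below it.

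CEACAM1 is a transmembrane glycoprotein with immunoglobulin domains that binds other CEACAM1 molecules on neighbouring cells. Its long cytoplasmic tail holds tyrosines that, once phosphorylated, recruit the phosphatases SHP-1 and SHP-2, while a short-tailed form lacks them. It is found on epithelia, endothelium and leukocytes, promotes insulin clearance in the liver and is the main receptor of mouse hepatitis virus. CEACAM2 is its closest mouse relative, with a narrower distribution that includes kidney, and has been linked to energy balance. The Ceacam1 cluster is annotated with 4 RefSeq transcripts and the Ceacam2 cluster with 3, so long and short forms were not separated here. The annotations of both clusters share 0 accessions.

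The sequences before the start sites are shown because these paralogs are related there as well, and because they differed in the arrays. They are the 250 bases before each RefSeq gene start in build GRCm38.p6, written in the direction of transcription, for Ceacam1 (chr7:25477626-25477875, minus strand), Ceacam2 (chr7:25540005-25540254, minus strand) and Ceacam10 (chr7:24776917-24777166, plus strand), a further relative on the same chromosome. For Ceacam10 2 starts were listed and the first was used, so its alignments and motif counts below hold for that start. Capitals mark AGAACA, a core bound by steroid receptors, on either strand, and CACGTG, the E-box bound by USF factors.
Ceacam1: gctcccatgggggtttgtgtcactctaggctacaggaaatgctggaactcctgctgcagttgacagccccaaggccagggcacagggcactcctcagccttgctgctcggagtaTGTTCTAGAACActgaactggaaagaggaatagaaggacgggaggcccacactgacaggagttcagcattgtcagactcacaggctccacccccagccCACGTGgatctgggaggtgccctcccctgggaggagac
Ceacam2: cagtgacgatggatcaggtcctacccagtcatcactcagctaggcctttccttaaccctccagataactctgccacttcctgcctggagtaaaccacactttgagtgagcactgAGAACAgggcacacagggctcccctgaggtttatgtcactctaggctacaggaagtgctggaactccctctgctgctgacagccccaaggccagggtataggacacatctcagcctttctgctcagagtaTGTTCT
Ceacam10: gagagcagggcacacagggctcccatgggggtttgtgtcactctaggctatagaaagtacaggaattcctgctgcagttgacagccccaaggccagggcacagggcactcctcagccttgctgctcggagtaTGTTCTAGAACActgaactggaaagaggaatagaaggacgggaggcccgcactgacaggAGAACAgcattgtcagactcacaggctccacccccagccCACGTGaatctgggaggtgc
Over the window of 300 bases that runs to 50 bases after the start, a local alignment of Ceacam1 with Ceacam2 paired 128 bases, of which 113 were identical (88.3%). This stretch lies from -250 to -122 in Ceacam1 and from -119 to 9 in Ceacam2, so the related sequence sits nearer the annotated start of Ceacam2. Ceacam1 and Ceacam10 were identical at 261 of 280 aligned bases (93.2%), with an unbroken shared run of 114 bases.

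The windows were searched on both strands for 6 motifs. AGAACA had 2 matches in Ceacam1, 5 in Ceacam2 and 3 in Ceacam10, and 19.0% of 32851 mouse promoter windows of this length had at least 1. Of the 5 matches in Ceacam2, 3 lay after the annotated start, from 1 to 30. CACGTG had 1 match in Ceacam1, from -38 to -33, 1 in Ceacam10 and 0 in Ceacam2, against 7.15% of all windows. It contains the hypoxia response core ACGTG, which 19.6% of windows held and whose matches in Ceacam1 and Ceacam10 were these same bases. In Ceacam1 they lie after the stretch aligned with Ceacam2, which ended at -122 in Ceacam1 and at 9 in Ceacam2. By the same spacing, the counterpart in Ceacam2 would lie past the window, which ends 50 bases after the start. That part was not searched, so the 0 matches in Ceacam2 hold for this window alone. The other hypoxia response core, GCGTG (32.4% of windows), the Sp1 motif GGGCGG (35.7%) and an interferon response motif (3.44%) had 0 matches in these 3 windows. A match of letters is a description and not a binding site.

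Ceacam2 differed widely between the arms. Its log2 signal was 6.66, 6.87 and 6.67 in vehicle replicates 1, 2 and 3 and 10.37, 9.49 and 8.98 in PT2385 replicates 1, 2 and 3. All PT2385 arrays were above all vehicle arrays, with a gap of 2.11 between the lowest PT2385 and the highest vehicle value. The means were 6.73 ± 0.12 in the vehicle group and 9.61 ± 0.70 in the PT2385 group (SD, n = 3 each), a difference of 2.88 (SE 0.30), or 7.36-fold. This SE and each SE below come from limma, which draws the spread of a cluster toward that of the others. By its difference Ceacam2 ranked 3 of 22206 clusters, counted from the highest. Relative to the vehicle mean, PT2385 replicates 1, 2 and 3 lay 3.64, 2.76 and 2.25 higher. The spread within the PT2385 group was also wide, with a range of 1.39 against 0.21 in the vehicle group. The vehicle values of Ceacam2 were no brighter than some background control rows, which spanned 2.41 to 7.47, so the difference can be understated.

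Ceacam1 had a small difference the other way. Its log2 signal was 9.65, 9.49 and 9.44 with vehicle and 9.44, 9.03 and 8.90 with PT2385. PT2385 replicates 2 and 3 were below every vehicle array, while replicate 1 (9.444) was just above the lowest vehicle array (9.438), so the groups overlapped. The means were 9.53 ± 0.11 and 9.12 ± 0.28 (SD, n = 3 each), a difference of -0.40 (SE 0.15), and the PT2385 mean was 1.32-fold lower. Leaving out PT2385 replicate 1 gave -0.56 and leaving out PT2385 replicate 3 gave -0.29, against 2.50 and 3.20 for Ceacam2. Ceacam1 lay above the highest background control row in every array.

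**Figure D1:**
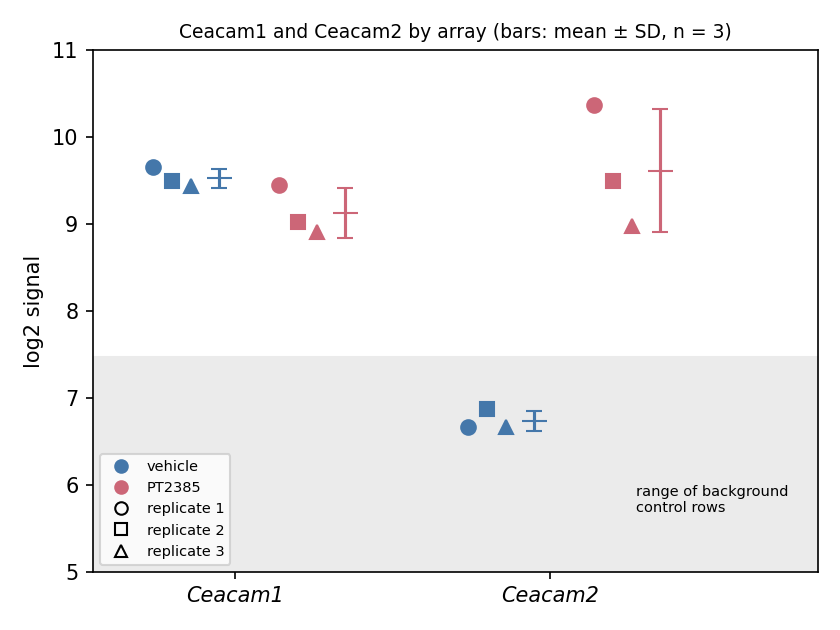
Log2 signal of Ceacam1 and Ceacam2 in each array (points; shape marks the replicate number) with the mean and SD of each group (bars, n = 3) for the vehicle (blue) and PT2385 (red) arms. Ceacam2 is at 6.66 to 6.87 in the vehicle arrays, inside the shaded span of background controls, and at 8.98 to 10.37 in the PT2385 arrays, while the Ceacam1 groups overlap near 9.44; heights of different clusters cannot be compared.

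Whether the paralogs shared signal was looked at through their change relative to each other within each array. Probe sequences were not used here. If the Ceacam2 cluster had read only Ceacam1 transcripts, or the reverse, the log2 distance between both clusters would have been alike in every array. Relative to its vehicle mean, that distance was -0.20, 0.17 and 0.02 in vehicle replicates 1 to 3, against 3.72, 3.26 and 2.87 in PT2385 replicates 1 to 3. The clusters therefore changed unequally. A smaller shared portion of signal was not tested. In the PT2385 group both genes were highest in replicate 1 and lowest in replicate 3.

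The question for the rest of the family was whether other CEA genes differed between the arms. Of the 26 other Ceacam and Psg genes measured, 0 passed the threshold of the limma fit (Benjamini-Hochberg adjusted p under 0.05 over all clusters), where 0.829% of all clusters did, and 1 had an unadjusted p under 0.05, against 14.5% of all clusters. Positive differences were found for 17 of them and negative for 9, which became 14 and 12 with cyclic loess. The median was 0.09, against 0.02 over all clusters, and it fell to 0.02 with cyclic loess, 0.03 with quantile normalization and 0.04 without vehicle replicate 3. The groups did not overlap, with higher PT2385 values, for 4 genes (Ceacam10, Ceacam19, Psg18 and Psg19), and such separation upward was found for 11.6% of all clusters.

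Ceacam10, which encodes a secreted relative of CEACAM1 and whose start window resembles that of Ceacam1, had the smallest p of these genes. Its log2 signal was 5.38, 5.36 and 5.14 with vehicle and 5.81, 5.56 and 5.51 with PT2385. The difference of 0.33 (SE 0.12) had an adjusted p = 0.260 in limma's fit. Its highest array was PT2385 replicate 1, as for Ceacam2. The other 12 Ceacam genes had differences between -0.16 (Ceacam11) and 0.16 (Ceacam18). Among them, Ceacam9 had 0.15, Ceacam12 0.15, Ceacam19 0.15, Ceacam13 0.09, Ceacam14 0.09, Ceacam16 0.09, Ceacam15 0.06, Ceacam5 -0.03, Ceacam3 -0.08 and Ceacam20 -0.11. The signs for Ceacam5, Ceacam14, Ceacam15 and Ceacam16 turned under at least 1 alternative.

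The 13 Psg genes encode pregnancy-specific glycoproteins, which are secreted by the placenta. Their signals ran from 3.02 to 5.43 and their differences from -0.13 to 0.21. Of these, 9 had both group means at or under 4.47, the negative control level given above, as did 6 of the 13 other Ceacam genes. No value of the 26 genes exceeded 6.50. A difference in such dim genes could be missed. Among the CEA family genes measured, the Ceacam1 cluster was above all background control rows in all 6 arrays and the Ceacam2 cluster in the PT2385 arrays.

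**Figure D2:**
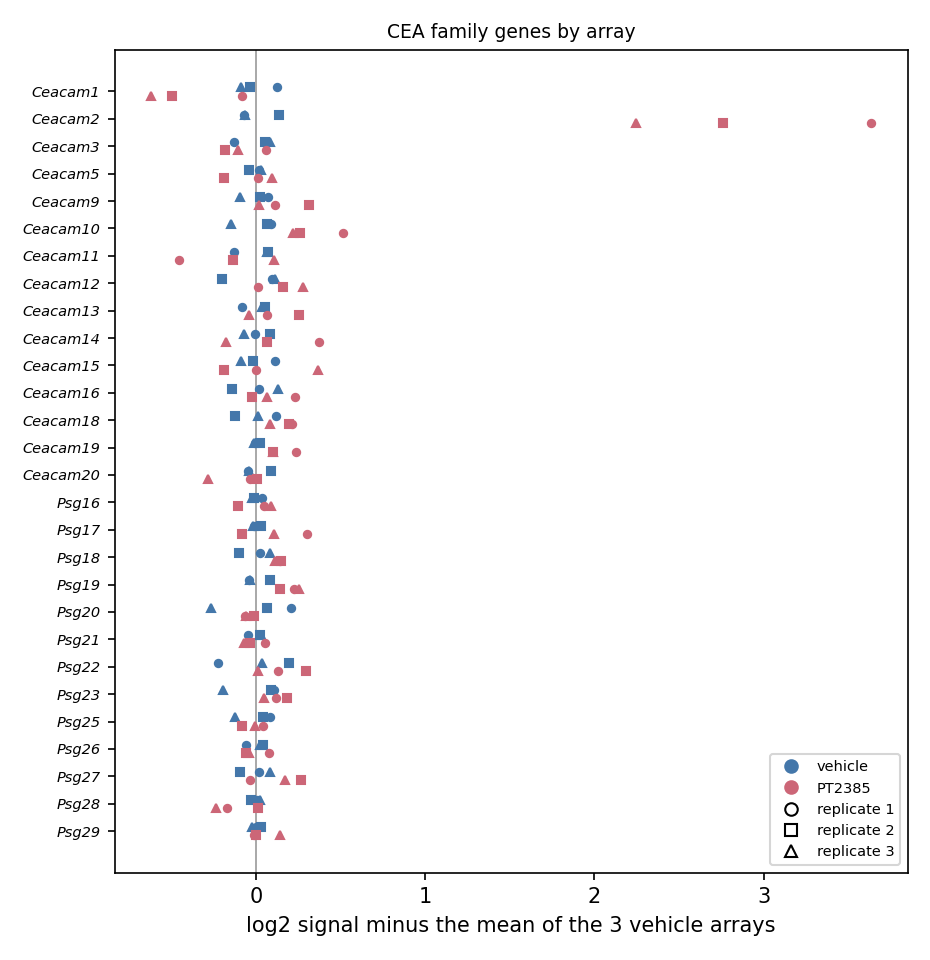
Log2 signal of each CEA family gene in each array minus the mean of the 3 vehicle arrays, with vehicle arrays in blue, PT2385 arrays in red and the replicate number given by the shape. The PT2385 arrays of Ceacam2 lie 2.25 to 3.64 to the right, while mean differences of the 26 other family genes lie between -0.16 and 0.33.

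The genes next to the pair were compared because they share its chromosomal position. The 5 measured protein-coding genes on either side of each member, in the RefSeq gene order, came to 10 genes besides the members. Of these, 0 passed the threshold in limma's fit (0.829% of all clusters) and 1 had an unadjusted p under 0.05, where 14.5% of all clusters did. Their median difference of 0.10 ranged from 0.02 without PT2385 replicate 3 to 0.18 without PT2385 replicate 1. Prr19, a proline-rich protein gene, had 0.44 (SE 0.10, adjusted p = 0.0974), and B3gnt8, a glycosyltransferase gene, had 0.20 (SE 0.09, adjusted p = 0.373). These were the 2 of 10 neighbours whose groups did not overlap, both upward, where 11.6% of all clusters were separated upward. Cxcl17, a chemokine gene on the far side of Ceacam1, had 0.25 and Erich4, on the far side of Ceacam2, had -0.02, with adjusted p of 0.619 and 0.941. The differences of the 10 neighbours lay between -0.20 and 0.44, against -0.40 for Ceacam1 and 2.88 for Ceacam2.

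**Figure D3:**
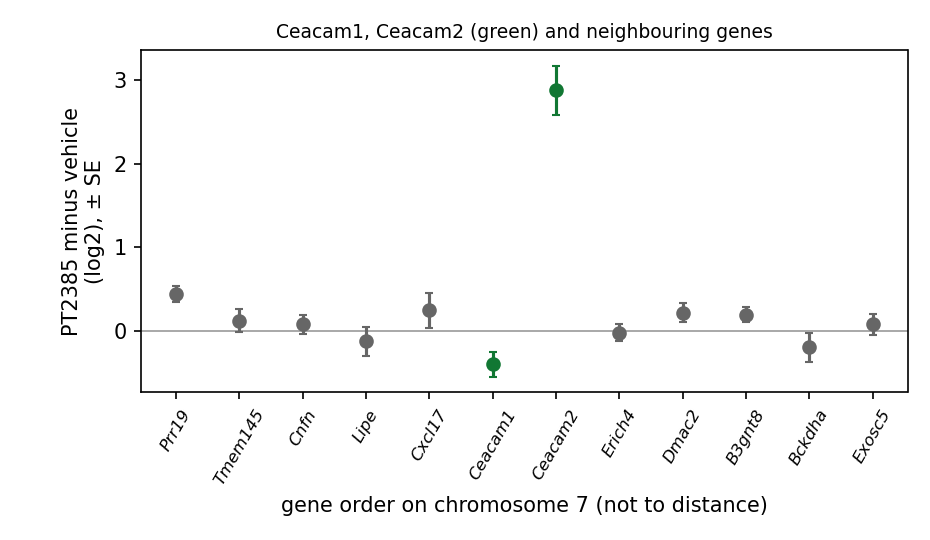
PT2385 minus vehicle difference on the log2 scale (points, with the SE from limma) for Ceacam1 and Ceacam2 (green) and the 10 measured protein-coding neighbours (grey), in gene order along chromosome 7 and not to distance. Ceacam2 is at 2.88, Ceacam1 is at -0.40 and the 10 neighbours of the pair lie between -0.20 and 0.44.

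Genes for proteins that CEACAM1 binds or acts on, and for factors described at its promoter, showed no member past the threshold. Of 44 such genes 38 were measured and 0 passed in limma's fit (0.829% of all clusters). An unadjusted p under 0.05 was found for 3, against 14.5% of all clusters. Of the 38, 27 had a negative difference and the median was -0.09. The negative differences were 24 to 28 under the other normalizations and 21 without PT2385 replicate 1, where the median was -0.02. Groups did not overlap for 8 of the 38 genes, where 20.7% of all clusters were separated in either direction.

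In the signalling group of kinases, phosphatases and adaptors, 8 genes were measured. Ptpn6 and Ptpn11, which encode SHP-1 and SHP-2, had differences of -0.02 (SE 0.10) and -0.12 (SE 0.11). The smallest p values belonged to the adaptor gene Grb2, with 9.06, 9.16 and 9.06 in the vehicle and 8.82, 8.92 and 8.98 in the PT2385 arrays, and to the kinase gene Src (-0.27, SE 0.13). Their adjusted p were 0.399 and 0.401 in limma's fit. Among 9 receptor and uptake genes, Insr, the insulin receptor gene, had 0.11 (SE 0.11) and Egfr 0.10 (SE 0.14). Ap1m2, which encodes an epithelial clathrin adaptor subunit, had 6.42, 6.77 and 6.98 against 7.27, 7.09 and 7.31, a difference of 0.50 (SE 0.15, adjusted p = 0.197). Havcr2, which encodes TIM-3, a heterophilic partner of CEACAM1 on immune cells, had -0.36 (SE 0.20, adjusted p = 0.454).

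Of 9 genes for cytoskeletal and calmodulin partners, Itgb3 (-0.19, adjusted p = 0.619) and the paxillin gene Pxn (-0.10, adjusted p = 0.691) had the smallest p values. Of 3 protease genes these were Adam10 (-0.15, adjusted p = 0.601), which encodes a sheddase of surface proteins, and Mmp14 (-0.17, adjusted p = 0.649). Among 9 transcription factor genes, Nr1h4, which encodes the bile acid receptor FXR, had the largest difference. Its signal was 9.80, 9.85 and 9.77 in vehicle replicates 1 to 3, against 9.27, 9.14 and 9.48 in PT2385 replicates 1 to 3, so the groups did not overlap. The difference of -0.51 (SE 0.11, adjusted p = 0.0969) missed the threshold, although it passed with array weights (adjusted p = 0.0345), and its adjusted p reached 0.345 under the alternatives. Hnf4a, a regulator of proximal tubule identity, had -0.25 (SE 0.11, adjusted p = 0.339). Usf1 and Usf2, which encode the factors that bind CACGTG, had 0.16 (SE 0.09) and -0.02 (SE 0.12), with adjusted p of 0.473 and 0.957.

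Of 22 other surface adhesion genes, mostly of the immunoglobulin superfamily, 1 fell and 0 rose past the threshold in limma's fit (0.495% and 0.333% of all clusters). An unadjusted p under 0.05 was found for 12 (7 higher and 5 lower), against 14.5% of all clusters. The list's median of -0.09 turned to 0.02 without PT2385 replicate 1 and was -0.02 without vehicle replicate 2. Groups did not overlap for 6 genes upward and 3 downward, against 11.6% and 9.13% of all clusters. Cadm1, which encodes an adhesion protein of epithelial lateral membranes, fell from 8.16, 8.24 and 8.06 to 7.07, 7.20 and 7.55, a difference of -0.88 (SE 0.14, adjusted p = 0.0303). It no longer passed without vehicle replicate 1, 2 or 3 or PT2385 replicate 1 or 2, with adjusted p of 0.108, 0.132, 0.0876, 0.0520 and 0.170. Bcam, a laminin receptor gene, had 0.60 (SE 0.14, adjusted p = 0.128) and passed only with array weights (adjusted p = 0.0383).

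**Figure D4:**
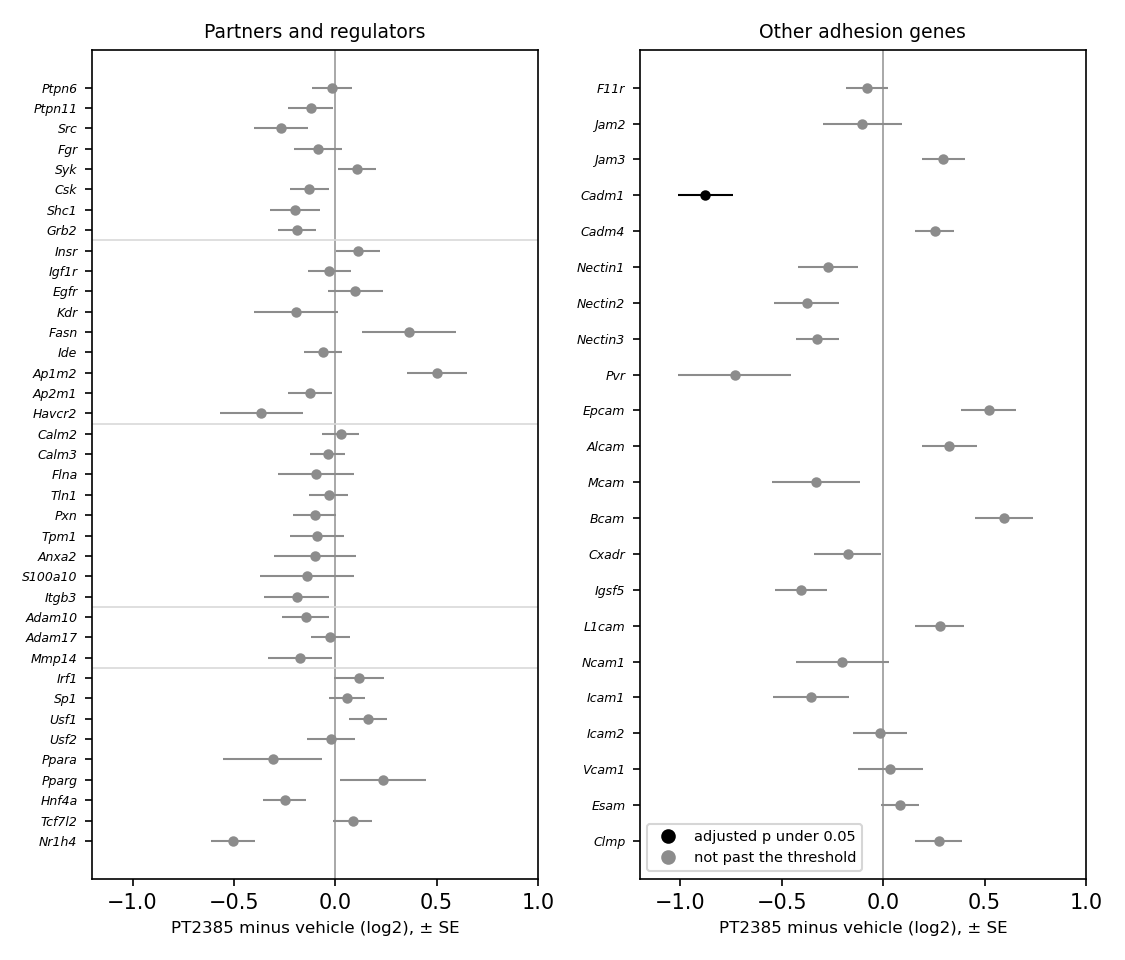
PT2385 minus vehicle difference on the log2 scale (points, with the SE from limma) for 38 genes of CEACAM1 partners and regulators (left; lines separate signalling, receptors and uptake, cytoskeleton and calmodulin, proteases and transcription factors) and 22 other adhesion genes (right). Cadm1, at -0.88, is the only black point, which marks an adjusted p under 0.05.

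Levels of cell type markers in the same arrays are given beside those of Ceacam1 and Ceacam2. In bulk samples, fewer cells of a type and less RNA per cell cannot be told apart. Of 10 loop of Henle and distal tubule markers, 0 passed the threshold in limma's fit (0.829% of all clusters) and the median difference was 0.96. At an unadjusted p under 0.05 there were 9, all higher in the PT2385 group (14.5% of all clusters in either direction), and 8 had groups separated upward (11.6% of all clusters). Their mean signal was 8.48 to 8.53 in the vehicle arrays and 10.12, 9.44 and 9.06 in PT2385 replicates 1, 2 and 3, with the highest and lowest PT2385 arrays as for Ceacam2. Kcnj1, a potassium channel gene of the thick ascending limb, had 0.90 (SE 0.20, adjusted p = 0.0982) and Calb1, the calbindin gene, had 1.62 (SE 0.39, adjusted p = 0.124). Both passed with array weights (0.0337 and 0.0424) and without PT2385 replicate 3 (0.0157 and 0.0210). In all, 4 markers of this list passed with array weights, 5 without PT2385 replicate 3 and 1, Egf, without PT2385 replicate 1. Of 10 collecting duct markers, 0 passed, 5 had an unadjusted p under 0.05 and 8 did not overlap, all higher, against the same 14.5% and 11.6% of all clusters. The list's mean was 7.98 to 8.12 in the vehicle and 8.46 to 8.62 in the PT2385 arrays, with Scnn1b at 0.55 (adjusted p = 0.0535) and Aqp2 at 1.10 (adjusted p = 0.0552). Both passed with quantile normalization, cyclic loess, the trended robust prior and array weights, with adjusted p of 0.0191 to 0.0401 for Scnn1b and 0.0168 to 0.0491 for Aqp2. With array weights 4 markers of this list passed, and without vehicle replicate 3 Avpr2 alone did. The part of these markers in the Ceacam2 values was not tested.

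Differences of 6 of 7 leukocyte markers were negative, and leukocytes also carry CEACAM1. The markers were not alike. S100a8 had -1.56, S100a9 -1.01, Itgam -0.95 and Ptprc -0.47, against 0.13 for Cd3e and -0.05 for Adgre1, whose sign turned under 2 alternatives. Of the 7, 1 fell past the threshold (0.495% of all clusters did), 5 had an unadjusted p under 0.05, all lower (14.5% in either direction), and 4 were separated downward (9.13%). Without PT2385 replicate 3, 4 of the 7 passed, and with array weights 3 did. The mean of the list was 6.35, 6.09 and 6.21 with vehicle and 5.19, 5.50 and 5.84 with PT2385. These means all lay below the brightest background control row (7.47). Cd3e, at 3.71 to 4.19, lay under the highest negative control median (4.47). Csf3r, the granulocyte colony-stimulating factor receptor gene, differed by -1.04 (SE 0.16, adjusted p = 0.0326), a call lost without vehicle replicate 1, 2 or 3 or PT2385 replicate 2 (adjusted p of 0.0971, 0.116, 0.112 and 0.150). Its signal, 5.27 to 6.84, was also below the brightest background row in every array. PT2385 replicate 1 had the lowest leukocyte mean and the highest Ceacam1 signal of its group. The part of leukocytes in the Ceacam1 difference was not tested.

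Proximal tubule markers had 1 of 10 past the threshold in limma's fit (0.829% of all clusters), the organic anion transporter gene Slc22a6 (-0.97, SE 0.10, adjusted p = 0.00572). At an unadjusted p under 0.05 there were 2, both lower (14.5% of all clusters in either direction), and 2 were separated downward (9.13%). The median of these markers was -0.07, which was -0.44 without PT2385 replicate 1 and turned to 0.21 without PT2385 replicate 3. Their mean was 11.19, 10.90 and 11.20 in vehicle replicates 1 to 3, against 11.48, 10.91 and 10.42 in PT2385 replicates 1 to 3, so the groups overlapped, and within the PT2385 arm it was highest in replicate 1 and lowest in replicate 3, as for both members. Of 8 endothelial, 5 fibroblast and pericyte and 4 podocyte markers, 0 passed in limma's fit (0.829% of all clusters). At an unadjusted p under 0.05 there were 0, 1 and 0, against 14.5% of all clusters. The smallest p values were at Plvap (0.34) and Tek (0.20), at Dcn (0.51) and Acta2 (-0.42), and at Wt1 (0.27) and Podxl (0.08).

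**Figure D5:**
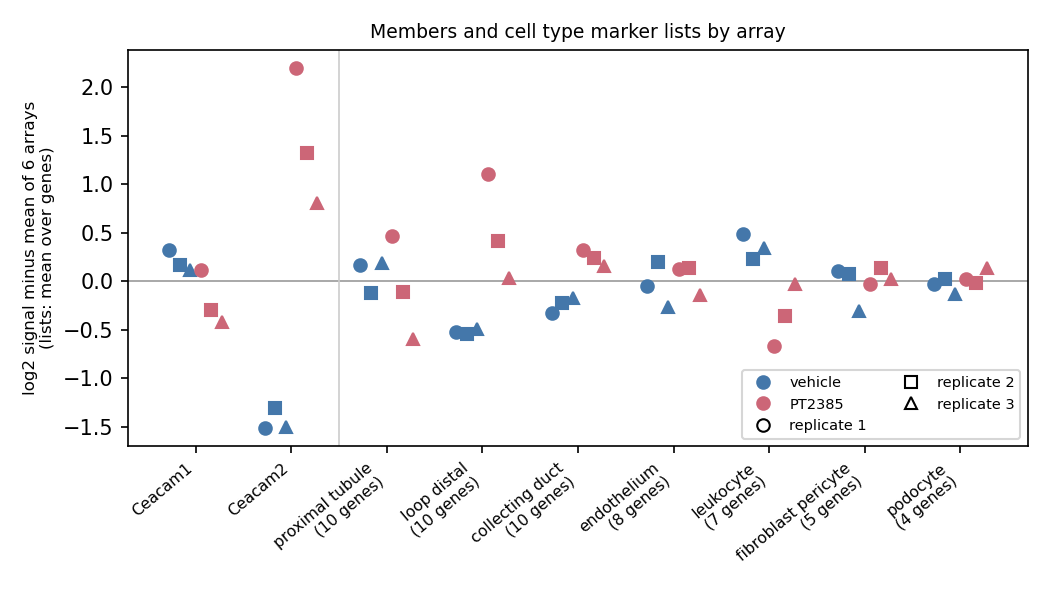
Log2 signal of Ceacam1, of Ceacam2 and of each marker list (mean over its genes) in each array, minus its own mean over the 6 arrays; vehicle arrays in blue, PT2385 arrays in red, replicate number by shape. Ceacam2 runs from -1.51 to 2.20 and the loop and distal list from -0.54 to 1.10, with PT2385 replicate 1 highest in both, while the leukocyte list is lowest in that array (-0.67).

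The genes with the profile nearest to each member were found over the 6 arrays, by the root mean square distance between profiles after the vehicle mean of each gene was subtracted, among 18437 genes. Nearest to Ceacam2 was Scd1, a stearoyl-CoA desaturase gene, at a distance of 0.24 on the log2 scale. It had 7.30, 7.43 and 7.49 with vehicle and 10.52, 9.98 and 9.74 with PT2385, higher in every PT2385 array and highest in replicate 1. The serpin gene Serpina1f followed at 0.30, the lipid transporter family gene Abca13 at 0.46, the bone morphogenetic protein antagonist gene Chrdl1 at 0.47 and Egf, the epidermal growth factor gene of the distal nephron and one of the loop and distal markers above, at 0.59. Egf had 5.87, 6.11 and 5.98 in vehicle replicates 1 to 3, against 10.12, 8.08 and 7.05 in PT2385 replicates 1 to 3. All of these had their highest value in PT2385 replicate 1 and their lowest PT2385 value in replicate 3. Their height with PT2385 and this order follow from the search, which picked genes by nearness to Ceacam2 over these same arrays.

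Nearest to Ceacam1 were Tmem106a, a transmembrane protein gene, at 0.042, the lysosomal sulfatase gene Arsb at 0.044, the lysosomal thioesterase gene Ppt2 at 0.051, the inhibitory Fc receptor gene Fcgr2b at 0.052 and the NADPH oxidase gene Cybb at 0.052. The lower PT2385 means of these genes and their order among the replicates follow from the search over these same arrays. Fcgr2b and Cybb are known from myeloid cells. Within the PT2385 arm both were highest in replicate 1, where the mean of the leukocyte markers above was lowest. A part of leukocytes in these profiles was not tested. Tmem106a, the nearest, had a lowest vehicle value of 10.14 and a highest PT2385 value of 10.06, so its groups did not overlap. Those of Ppt2 did not overlap either (8.78 and 8.68). Fcgr2b had 9.65, 9.40 and 9.45 with vehicle and 9.44, 9.03 and 8.97 with PT2385. Its groups overlapped, as did those of Arsb, Cybb and Ceacam1.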

How the data were processed

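Total RNA from 6 samples was hybridised to Affymetrix whole-transcript arrays, 1 per sample, per the labels' protocols. The deposited values are log2 signals summarised per transcript cluster, and Transcriptome Analysis Console is named, without a version, in the submitters' processing notes. How the background was corrected and the arrays normalized is not given in the sources used here. Of 28846 rows, 6640 control rows were left out and 22206 clusters were tested. The platform annotation gave 1 symbol to 19572, several to 0 and none to 2634. All 19572 Entrez IDs matched the RefSeq table (GRCm38.p6), which served for names and gene order. For the 55 genes with several clusters, the brightest was used.

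Groups were compared with limma 3.58.1 (R 4.3.3; lmFit, eBayes, 2-sided, treatment as the only term), with Benjamini-Hochberg adjustment over all clusters. The code was tested on simulated data. Array number limits the precision. No 2 arrays shared more than 0.234% of values. The members and lists were chosen with earlier results of these data known. The text names both members, each other Ceacam gene, up to 4 members of a list past the threshold or else the 2 with the smallest p, and the 5 nearest profiles per member, leaving out predicted, clone and pseudogene names. Ptpn6, Ptpn11, Insr, Egfr, Usf1, Usf2, Bcam, Avpr2, Cxcl17, Erich4, S100a8, S100a9, Itgam, Ptprc, Cd3e and Adgre1 fall outside that rule and were named after their values were seen. Motifs, alignments (Biopython 1.88) and coordinates use RefSeq promoter windows. A protein comparison was not made. Alternatives were a replicate block, other normalizations, 1 cluster per gene, array weights, a dim-cluster filter, a trended robust variance prior, omission of the X and Y chromosomes and omission of each array.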

Additional observations from a re-analysis of the deposited data

How the results depend on the processing

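The difference of Ceacam2 stayed between 2.50 and 3.20 and that of Ceacam1 between -0.56 and -0.29 when each array was left out in turn. With quantile normalization, cyclic loess or median centring they were 2.90, 2.93 and 2.84 for Ceacam2 and -0.35, -0.35 and -0.45 for Ceacam1. The number of clusters called, 184, became 456 with array weights and 42 to 179 without single arrays. Median centring gave 57 higher and 135 lower calls, against 74 and 110. With array weights 2 other adhesion genes passed in place of 1, and 1 partner or regulator gene in place of 0. Without single arrays the adhesion count was 0 to 1. The cause of these shifts was not tested. The other CEA family genes and the neighbours had 0 calls under every alternative run. Deviations of same-numbered arrays correlated at 0.14, 0.03 and -0.06 across clusters and those of different numbers at -0.22 to 0.24. Same-numbered arrays were thus no more alike than others. With 3 arrays per arm this cannot show whether same-numbered samples were processed together. With the replicate number as a block, 178 clusters passed, the member differences were the same 2.88 and -0.40, and 1 collecting duct marker, Aqp2, gained a call (adjusted p = 0.00917, limma), while no other listed gene changed its call. No second cluster carried the symbol of either member, so that alternative could not be run. The dim filter left 20 of the 26 other CEA family genes.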
